A study of Mus musculus with 16 samples.

Results

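Aminoacyl-tRNA synthetases were followed as a family of 37 genes, 20 coding for the cytosolic enzymes and 17 for the mitochondrial ones, among 48158 genes in the deposited expression table. The members were chosen by gene symbol alone: a letter followed by ars, the same with a final 2 for the mitochondrial form, and Eprs, Farsa and Farsb. Of these, 36 reached at least 1 FPKM in at least 2 libraries and were tested; Mars2, the mitochondrial methionyl enzyme, did not. FPKM are fragments scaled to transcript length and to sequencing depth, here summed over the transcripts of a gene.

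The libraries were made from polyadenylated RNA of hepatocytes of FVB mice that were fed either chow or, for 4 weeks, DDC, a porphyrinogenic compound that injures the liver and evokes a ductular reaction. No other allele or agent is given in the labels, apart from cycloheximide during cell isolation, which holds ribosomes on their messages. In each diet, 4 RNA pools were sequenced with 2 libraries each, 16 in all: cytoplasmic RNA, monosomes (1 ribosome), light polysomes (2 to 4 ribosomes) and heavy polysomes (more than 5 ribosomes). Whether libraries are from different animals is not given, and some names point to pooled preparations, so p-values measure the spread between these libraries, which may be technical. Within a diet, the fractions come from the same preparations and were fitted as independent.

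A synthetase joins one amino acid to its tRNA, spending ATP, and so sets the supply of charged tRNA and the accuracy with which codons are read. The cytosol and the mitochondrial matrix have their own tRNAs, and most amino acids are served by separate nuclear genes for the 2 compartments. Gars and Kars are exceptions, since a single gene makes both forms of the glycyl and lysyl enzymes. No mitochondrial glutaminyl enzyme exists in animals, and Gln-tRNA is made there by amidation of Glu-tRNA. Several cytosolic enzymes, among them Eprs, Iars, Lars, Qars, Mars, Kars, Rars and Dars, are held in a multisynthetase complex by the scaffold proteins Aimp1, Aimp2 and Eef1e1. Transcription of many cytosolic members is raised by ATF4, the factor made when amino acids run short or the endoplasmic reticulum is stressed.

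The depth of each library is unknown, because the values were scaled between libraries before deposit. Summed FPKM ran from 373976 to 1379630 per library and 8313 to 9874 genes reached 1 FPKM. Replicates correlated at 0.950 to 0.985 across genes. The 12 hepatocyte markers summed to 17423 to 22946 FPKM in chow cytoplasm and 12306 to 18535 in DDC cytoplasm. On heavy polysomes they summed to 39925 to 45220 in chow and 14191 to 20657 in DDC. Alb was listed at 0 in every library, as were Apoa1, Serpina1a or Ttr in some groups. Markers of some other cells were higher in DDC. In cytoplasm the Kupffer cell and macrophage markers summed to 671 to 1042 FPKM against 106 to 135 in chow. The stellate cell markers summed to 140 to 161 against 27.5 to 44.2 and the ductal markers to 338 to 453 against 42.1 to 47.3. Endothelial markers overlapped there, at 32.4 to 49.7 FPKM in DDC against 36.6 to 39.9, as did red blood cell markers, at 8.38 to 12.8 against 2.76 to 9.36.

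The typical cytosolic gene was the more abundant in every library (the plot of levels by gene). The median cytosolic gene stood at 8.26 to 26.0 FPKM and the median mitochondrial gene at 3.31 to 9.76, a ratio of 1.71 to 4.07 within a library. Summed over the class, the cytosolic genes were higher in 15 of 16 libraries; in the first DDC heavy polysome library the mitochondrial sum was 857 FPKM, with 652 from Lars2 alone, against 623. Together the members made up 0.0467% to 0.136% of a library's FPKM. FPKM are per length of each transcript model, and a gene's level is the sum over its models. Short or non-coding models held much of the level of some members. The median share on coding models ran from 0.76% for Vars2 to 100% for genes such as Gars. Levels and ranks between genes are therefore only roughly comparable.

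Mars, the cytosolic methionyl enzyme whose product also charges the initiator tRNA, had the highest mean of its class (57.8 FPKM over the 16 libraries). It was at 22.3 and 22.7 FPKM in chow cytoplasm, 37.9 and 18.1 in DDC cytoplasm, 50.8 and 65.1 on chow monosomes, 76.0 and 42.9 on DDC monosomes, 72.9 and 77.8 on chow light polysomes, 51.6 and 53.0 on DDC light polysomes, 97.8 and 95.9 on chow heavy polysomes and 85.6 and 54.4 on DDC heavy polysomes. The diets overlapped in cytoplasm and on monosomes, and part of this level lies on short models: a 621-base coding model alone held 32.9 and 41.1 FPKM on chow monosomes, where the 2939-base model held 3.02 and 3.85. Lars, the leucyl enzyme, which also signals leucine supply to mTORC1, was the lowest cytosolic member, with a mean of 5.27 FPKM and a range of 0.906 to 11.2.

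Among the mitochondrial members, Lars2 had the highest mean (106 FPKM) and also the widest range (5.19 to 652 FPKM). It is described separately below because its 3′ UTR shares a run of bases with a non-coding gene, Gm15564. Fars2, the phenylalanyl enzyme, followed at 54.2 FPKM. Chow against DDC, it was at 14.5 and 22.1 against 19.0 and 13.7 FPKM in cytoplasm, 47.4 and 73.9 against 39.0 and 42.3 on monosomes, 56.6 and 73.9 against 59.0 and 48.6 on light and 105 and 112 against 75.3 and 65.0 on heavy polysomes. The diets were apart on monosomes and heavy polysomes, and its change was called in no pool. Most of its FPKM in the fractions lay on a 962-base model (39.9 and 66.8 FPKM on chow monosomes, against 7.48 and 7.14 for the 2125-base model). Wars2 (0.978 FPKM) and Mars2 (0.139 FPKM) were the lowest. Mars2 was at 0.293 and 0.1997 against 0.259 and 0.202 FPKM in cytoplasm, chow against DDC, 0.219 and 0.166 against 0.0768 and 0.184 on monosomes, 0.0648 and 0.141 against 0.0966 and 0.0809 on light polysomes and 0.0469 and 0 against 0.0687 and 0.121 on heavy polysomes. It did not reach the 1 FPKM of the filter in any library.

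**Figure D1:**
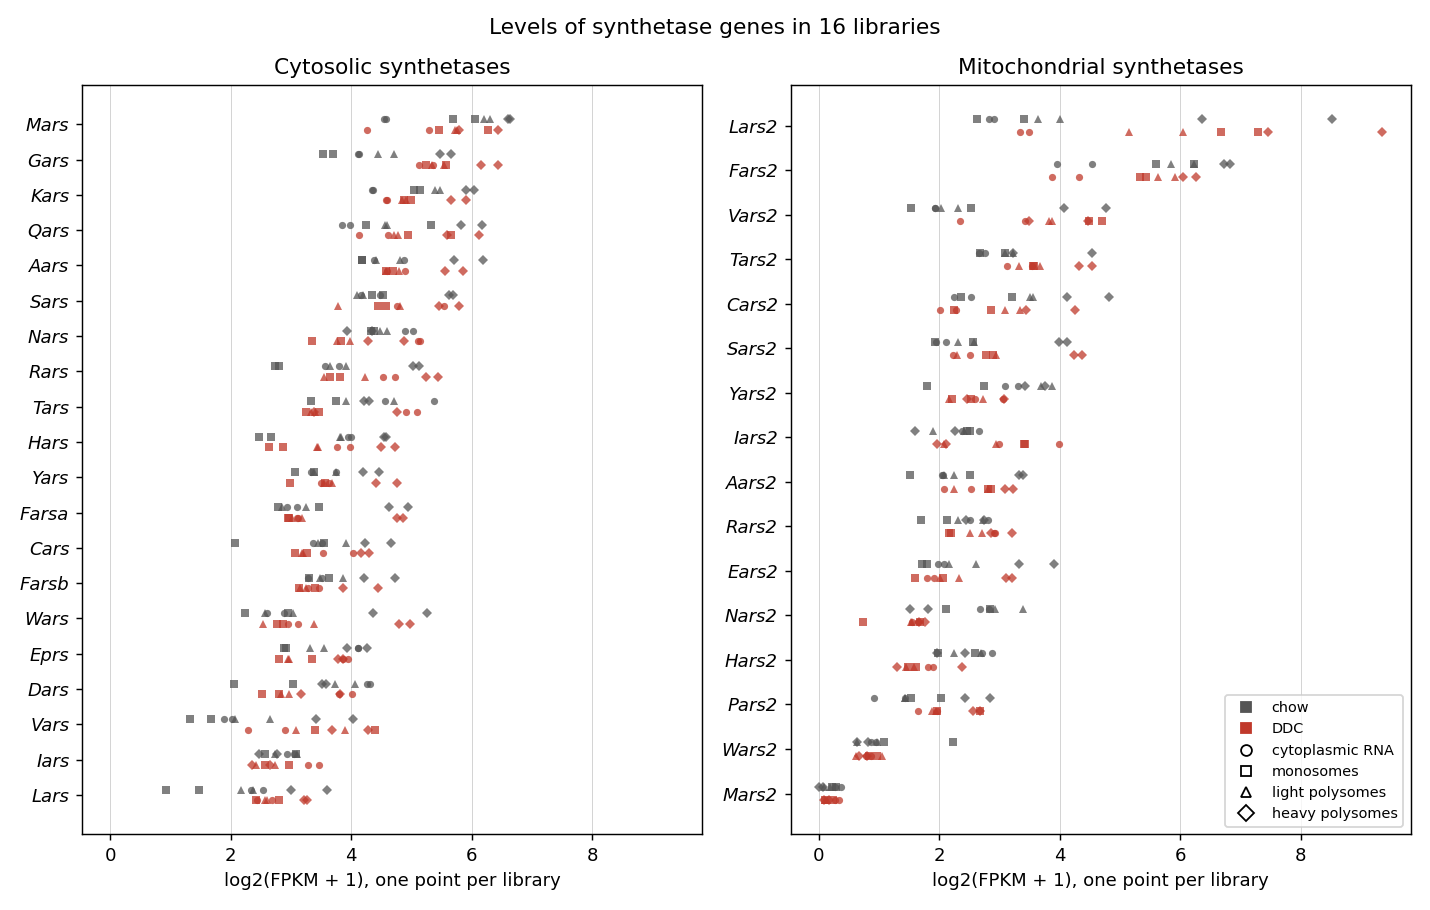
Level of the synthetase genes, 1 mitochondrial member not shown, as log2(FPKM + 1) on the horizontal axis, with one point per library; grey points are chow, red points DDC, and the marker shape gives the RNA pool. Lars2 spans the widest range of all members, and the highest library is one of heavy polysomes for 15 of 20 cytosolic and 11 of 17 mitochondrial genes.

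The first comparison asked where synthetase messages sat along the gradient. A linear model on log2(FPKM + 1) with 8 group means was fitted to all genes (limma), and a gene was called where its Benjamini-Hochberg adjusted p over all genes was under 0.05. In chow, 16 of 20 cytosolic members were higher on heavy polysomes than on monosomes and 0 were lower, and 12 of 16 tested mitochondrial members were higher and 1 lower; of all genes, 44.8% were called, 23.7% higher and 21.1% lower. The median difference was 1.22 for the cytosolic and 1.16 for the mitochondrial members, on the log2 scale, beside 0.00 over all genes. Among genes with at least 5 FPKM in 2 libraries the median was 0.28, and 55.2% were called, 2531 higher and 1592 lower. In DDC the counts were 12 higher and 0 lower of 20 cytosolic and 5 higher and 1 lower of 16 mitochondrial members (32.7% of all genes called, 18.2% higher and 14.5% lower), with medians of 0.89 and 0.64 beside 0.00. The genes with at least 5 FPKM in 2 libraries had a median of 0.21 in DDC, and 42.3% were called, 1990 higher and 1170 lower.

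This placement depends in size on how libraries are scaled. With each library brought to the same total, the chow calls over both classes became 14 higher and 5 lower. Of all genes, 42.8% were then called in chow, 1291 higher and 3747 lower. The DDC calls became 7 higher and 3 lower, beside 34.8% of all genes, 955 higher and 3139 lower. The median of all genes moved to -0.37. The class medians then stood above that of all genes by 0.81 (cytosolic) and 0.80 (mitochondrial) in chow and by 0.68 and 0.51 in DDC.

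Rars, the arginyl enzyme of the complex, was at 5.94 and 5.62 FPKM on chow monosomes and at 31.7 and 33.8 on chow heavy polysomes (log2 difference 2.32, adjusted p = 2.56e-05 by limma). On DDC it was at 11.6 and 13.0 against 36.6 and 42.6 (1.61, adjusted p = 0.000525). The pools did not overlap in either diet. Wars, the tryptophanyl enzyme and an interferon-inducible gene, had 3.72 and 6.73 FPKM on chow monosomes and 37.4 and 19.4 on heavy polysomes, and on DDC 6.29 and 5.79 against 30.3 and 26.7 (2.21 and 2.06). In cytoplasm Wars was at 6.37 and 5.09 against 7.68 and 6.76 FPKM, chow against DDC, and on light polysomes at 7.20 and 4.96 against 4.79 and 9.41, below every heavy polysome library. Without the chow libraries of preparation 1 its chow difference was 1.40 (adjusted p = 0.0521 by limma).

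Farsa, the catalytic subunit of the phenylalanyl enzyme, showed 5.89 and 10.003 FPKM on chow monosomes and 29.8 and 23.7 on heavy polysomes, and on DDC 6.73 and 6.80 against 28.2 and 26.0 (1.66 and 1.85). Its partner subunit Farsb was also called in both diets with smaller differences (1.00 and 0.89). Much of their FPKM lay on non-coding models, however: the median share on coding models was 52.0% for Farsa and 14.8% for Farsb, and with coding models alone the difference became 0.19 for Farsa in chow and -0.14 for Farsb in DDC. In the other pools Farsa was at 7.55 and 6.67 against 7.63 and 7.57 FPKM in cytoplasm, chow against DDC, and 8.53 and 6.19 against 7.12 and 8.04 on light polysomes.

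Hars, the histidyl enzyme, was at 5.37 and 4.55 FPKM on chow monosomes and 22.9 and 22.2 on heavy polysomes, and at 6.27 and 5.22 against 25.4 and 21.5 in DDC (1.99 and 1.86). In cytoplasm it was at 14.4 and 15.0 against 12.6 and 14.8 FPKM, chow against DDC, and on light polysomes at 13.2 and 13.1 against 9.89 and 9.79. Its exons overlap those of Hars2 on the other strand. The alanyl enzyme Aars was at 17.008 and 17.2 FPKM on chow monosomes and 71.9 and 51.3 on heavy polysomes, and at 24.9 and 22.8 against 46.0 and 57.0 in DDC (1.77 and 1.07).

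In cytoplasm Aars was at 28.2 and 19.8 against 28.7 and 23.0 FPKM, chow against DDC, and on light polysomes at 27.0 and 20.2 against 22.9 and 26.6, with overlapping diets in both pools; the DDC call of Aars did not pass when its 2 groups were fitted alone (adjusted p = 0.0706 by limma). Yars, the tyrosyl enzyme, was at 9.40 and 7.42 FPKM on chow monosomes against 21.1 and 17.3 on heavy polysomes and at 6.93 and 10.9 against 20.3 and 26.0 in DDC (1.10 and 1.304), with 12.5 and 9.08 against 11.3 and 10.3 in cytoplasm, chow against DDC, and 12.5 and 9.46 against 10.7 and 11.9 on light polysomes. Neither call of Yars passed when each was fitted on its 2 groups alone (adjusted p = 0.0539 and 0.0765 by limma). Qars, the glutaminyl enzyme of the complex, was called in chow only: it was at 17.9 and 38.9 against 70.6 and 55.3 FPKM there (1.21) and at 49.4 and 29.7 against 68.4 and 47.3 in DDC (0.56). A median of 12.1% of Qars FPKM lay on coding models, and at most 25.9% in any library. In cytoplasm Qars was at 13.5 and 14.8 against 23.5 and 16.5 FPKM, chow against DDC, and on light polysomes at 22.6 and 23.2 against 25.1 and 26.2; without the first chow library of either pool its call was lost (adjusted p = 0.16 and 0.0888 by limma).

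Of the mitochondrial genes, Sars2, the seryl enzyme, was at 2.82 and 4.91 FPKM on chow monosomes and 14.8 and 16.3 on heavy polysomes, and on DDC at 5.84 and 6.42 against 19.6 and 17.8 (1.80 and 1.47). Ears2, the glutamyl enzyme that feeds the amidation route, was at 2.29 and 2.46 FPKM against 14.0 and 9.02 in chow and at 3.16 and 2.04 against 7.66 and 8.23 in DDC (1.86 and 1.33). For both genes the pools did not overlap in either diet. In cytoplasm Sars2 was at 2.84 and 3.31 against 4.67 and 3.68 FPKM, chow against DDC, and Ears2 at 3.23 and 2.96 against 2.78 and 2.49; on light polysomes they were at 3.97 and 4.96 against 3.93 and 6.70 and at 5.12 and 3.48 against 3.03 and 4.00.

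Cars2, the cysteinyl enzyme, was at 4.15 and 8.24 FPKM on chow monosomes against 27.1 and 16.4 on heavy polysomes and at 3.75 and 6.27 against 18.0 and 9.88 in DDC (1.68 and 1.29). It was at 4.80 and 3.77 against 3.82 and 3.04 in cytoplasm, chow against DDC, and at 10.7 and 10.3 against 9.18 and 7.57 on light polysomes. The DDC call was lost without the first library of either pool (adjusted p = 0.12 and 0.144 by limma), and the chow value was 0.92 without preparation 1 (0.206). Rars2, the arginyl enzyme, was called in both diets too (0.68 and 0.85), but a median of 8.61% of its FPKM lay on coding models, and with those alone the difference was about 0 in chow and -0.998 in DDC. Its chow call was also lost without the first library of either pool (adjusted p = 0.224 and 0.183 by limma) and its DDC call without either monosome library or the first heavy one (0.0593 to 0.12). It was at 2.25 and 3.37 against 5.72 and 4.43 FPKM in chow, at 3.58 and 3.47 against 8.22 and 6.26 in DDC, at 6.04 and 4.69 against 6.59 and 6.48 in cytoplasm, chow against DDC, and at 5.63 and 3.95 against 4.69 and 5.52 on light polysomes.

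Aars2, Pars2 and Tars2, the alanyl, prolyl and threonyl enzymes, were called higher on heavy polysomes in chow and not in DDC. Aars2 was at 1.84 and 4.68 FPKM on chow monosomes against 9.02 and 9.46 on heavy polysomes and at 6.22 and 5.99 against 8.39 and 7.48 in DDC (1.35 and 0.33), with 3.17 and 3.15 against 4.76 and 3.21 in cytoplasm, chow against DDC, and 3.20 and 3.71 against 3.73 and 5.999 on light polysomes. Pars2 was at 1.89 and 3.06 against 6.21 and 4.36 FPKM in chow and 5.37 and 2.91 against 5.39 and 4.89 in DDC (0.86 and 0.30), with 1.68 and 0.881 against 2.90 and 2.13 in cytoplasm and 1.70 and 1.70 against 2.87 and 2.69 on light polysomes. The diet difference of this placement was called for none of the 3.

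Tars2 was at 5.40 and 7.54 against 22.1 and 8.37 FPKM in chow, where the pools did not overlap, and at 10.9 and 10.8 against 19.0 and 22.1 in DDC (0.99 and 0.86), with 5.77 and 5.35 against 10.6 and 7.67 in cytoplasm and 8.29 and 7.51 against 9.07 and 11.7 on light polysomes. Its chow value rested on the first heavy polysome library, without which it was 0.34 (adjusted p = 0.38 by limma). The chow call of Pars2 was lost without the first library of either pool (adjusted p = 0.186 and 0.169), and without preparation 1 the values were 0.88 for Aars2, 0.40 for Pars2 and 0.13 for Tars2.

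Not all members followed this placement. Iars, the isoleucyl enzyme of the complex, was at 7.47 and 4.90 FPKM on chow monosomes and 4.52 and 5.79 on heavy polysomes, with overlapping libraries (-0.21, adjusted p = 0.558), and at 4.93 and 6.86 against 5.32 and 4.12 on DDC (-0.26). Iars2 was lower on heavy polysomes in DDC, at 9.61 and 9.77 FPKM on monosomes and 2.92 and 3.34 on heavy polysomes (-1.37, adjusted p = 0.0146), and at 4.48 and 4.68 against 2.01 and 3.80 in chow (-0.55, adjusted p = 0.254). Without the first DDC library of heavy polysomes or either of monosomes the DDC call did not pass (adjusted p = 0.0548 to 0.0711 by limma). In cytoplasm Iars2 was at 4.22 and 5.34 against 14.8 and 6.91 FPKM, chow against DDC, and on light polysomes at 4.30 and 2.73 against 3.20 and 6.72. A median of 46.0% of Iars2 FPKM lay on coding models, with 13.2% in the lowest library.

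Wars2 was called lower in chow (-0.92), from 1.12 and 3.70 to 0.772 and 0.558 FPKM. This rested on 1 library: without the second chow monosome library the difference was -0.35 (adjusted p = 0.309 by limma). A median of 13.8% of its FPKM lay on coding models. In the other groups it was at 0.936 and 0.818 FPKM in chow cytoplasm, 0.732 and 0.832 in DDC cytoplasm, 0.789 and 0.952 on DDC monosomes, 0.964 and 0.548 against 0.529 and 1.07 on light polysomes, chow against DDC, and 0.588 and 0.738 on DDC heavy polysomes.

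**Figure D2:**
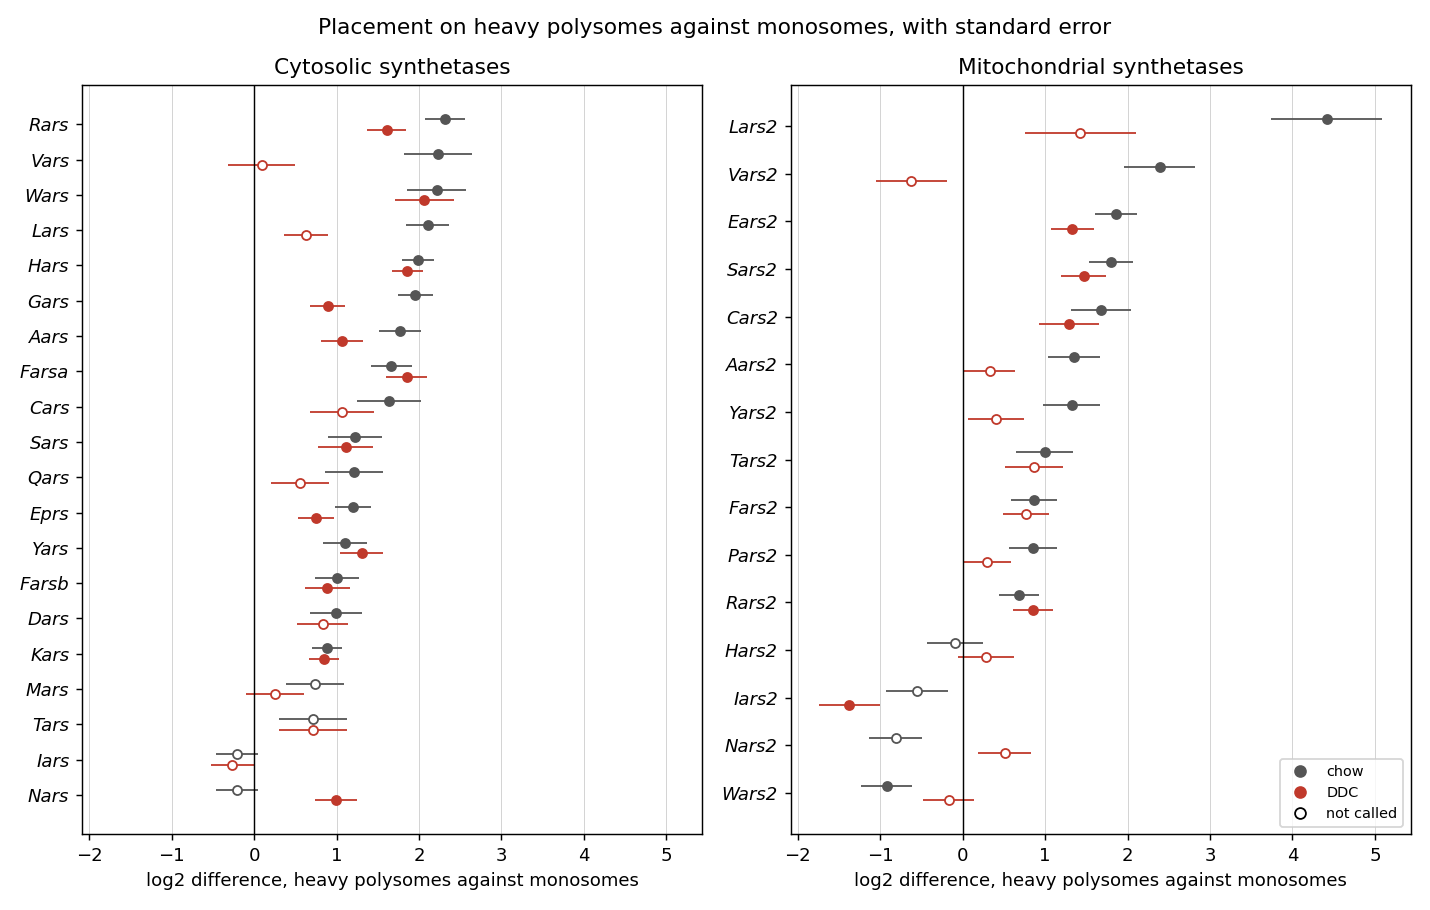
Log2 difference between heavy polysomes and monosomes for the tested members, 1 mitochondrial member not shown, with bars of 1 standard error; grey is chow, red is DDC, and filled points passed an adjusted p of 0.05. In chow most points of both classes lie to the right of 0, with medians of 1.22 and 1.16; under scaling to equal totals the medians are 0.44 and 0.43.

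Against cytoplasm, 15 of 20 cytosolic members were higher on chow heavy polysomes and 1 was lower, and 10 of 16 mitochondrial members were higher and 1 lower (51.4% of all genes called, 27.6% higher and 23.8% lower). In DDC the counts were 12 and 1, and 8 and 1 (46.7% of all genes called, 26.3% higher and 20.4% lower). Genes with at least 5 FPKM in 2 libraries had medians of 0.49 in chow and 0.39 in DDC, with 60.7% and 56% called. These directions turned with 1 of the 2 other scalings. With equal totals the calls were 4 higher and 12 lower in chow, beside 57.3% of all genes, 874 higher and 5873 lower. In DDC they were 3 higher and 9 lower, beside 56% of all genes, 870 higher and 5718 lower. The median of all genes moved to -0.80 and -0.77. The class medians became -0.27 and -0.09 in chow and -0.38 and -0.18 in DDC, still above that of all genes. With quantile normalization no called member changed direction. Fars2, Lars2 and Sars2 were called higher on heavy polysomes than in cytoplasm in both diets with the deposited scaling and with equal totals.

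Coding length was set beside placement, since a longer coding region has room for more ribosomes. The tested members had a median of 606.5 codons and all genes with a coding sequence 432. Across the 36 members, coding length correlated with the heavy polysome to monosome difference at a Pearson r of 0.243 in chow and -0.385 in DDC (Spearman 0.248 and -0.284). Over 10881 genes the values were -0.0863 and -0.181. The points share libraries and are not independent, so this is a description only.

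The next comparison asked which synthetase messages differed with DDC in each pool (the plot of diet change by pool). In cytoplasm, 2 of 20 cytosolic members were higher (Gars and Rars), and 1 of 16 mitochondrial members was lower (Nars2), beside 22.4% of all genes called, 12.7% higher and 9.68% lower. On monosomes 4 cytosolic members were higher (Gars, Lars, Rars, Vars) and 1 lower (Nars), with 2 mitochondrial members higher (Lars2, Vars2) and 1 lower (Nars2), beside 37% of all genes called, 21% higher and 15.9% lower. On light polysomes Gars and Vars2 were higher and Dars, Kars, Nars2 and Yars2 lower, beside 30.1%, 16.6% and 13.5%. On heavy polysomes Gars alone was called, and higher, among the 36 members, beside 24.8%, 13.9% and 10.9%. The 3, 8, 6 and 1 calls among 36 members are smaller shares than those of all genes, and the medians of both classes lay between -0.15 and 0.23 in all 4 pools.

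Markers of some non-parenchymal cells moved in the same comparisons: 10 of 13 Kupffer cell and macrophage markers were higher in cytoplasm, 12 on monosomes, 11 on light and 13 on heavy polysomes, and 9, 11, 10 and 11 of 12 stellate cell markers. Of 6 tested endothelial markers, 0, 1, 1 and 2 were called higher in these pools, and of 5 red blood cell markers 0. Hepatocyte markers were called lower for 2 of 10, 3 of 9, 4 of 8 and 3 of 9 tested, with 1 higher on monosomes. Fewer cells of a type and less RNA per cell cannot be told apart in these bulk samples. The part of other cells in the synthetase results was not tested.

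When the preparation was fitted as a replicate block within each diet, more members passed. In cytoplasm 6 of 36 were called (28.3% of all genes in this fit), Hars2 (-0.94), Sars (0.83) and Vars2 (0.95) being added. On light polysomes 11 were called (36.7% of all genes), with Hars2, Lars2, Nars, Tars and Vars added, and on heavy polysomes 2 (30.3% of all genes), with Fars2 (-0.63) added. The blocked fit treats the DDC cytoplasmic libraries as pairs of the DDC fractions by number alone.

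**Figure D3:**
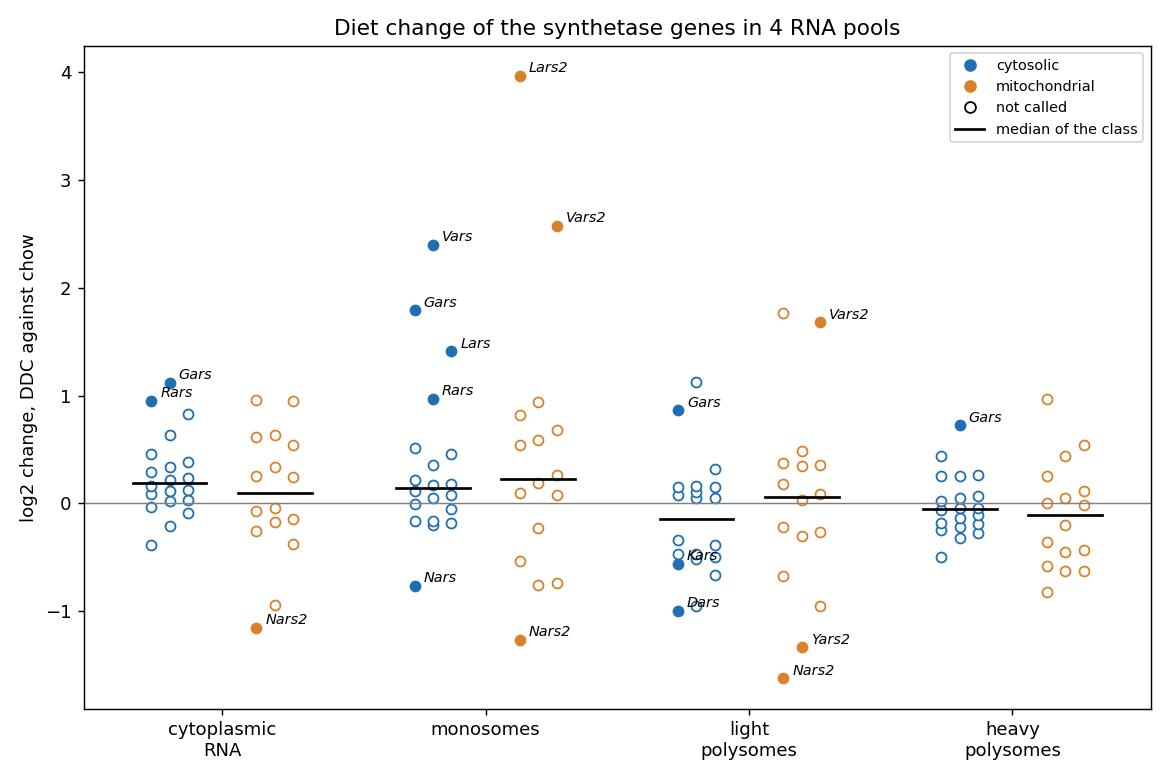
Log2 change between DDC and chow for each tested member in each RNA pool; blue points are cytosolic and orange points mitochondrial enzymes, filled points passed an adjusted p of 0.05 and bars give the class median. The medians stay between -0.15 and 0.23, and Gars is the only member filled in all 4 pools. With equal totals every class median is positive, as is the median of all genes in each pool (0.17 to 0.28). The cytosolic median on light polysomes is then 0.14 beside 0.23 for all genes. The mitochondrial median on heavy polysomes is 0.20 beside 0.28, and the other class medians lie above that of all genes.

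Gars (chr6:55038007-55079500 on GRCm38, plus strand), which makes both the cytosolic and the mitochondrial glycyl enzyme, was the member called higher in all 4 pools. It was at 16.5 and 16.3 FPKM in chow cytoplasm and 39.9 and 33.8 in DDC cytoplasm, a log2 change of 1.12 ± 0.21 (SE, adjusted p = 0.00333 by limma). On monosomes it was at 11.9 and 10.6 against 46.4 and 36.6 (1.79 ± 0.21, adjusted p = 0.000108), on light polysomes at 25.2 and 20.8 against 39.6 and 45.4 (0.86 ± 0.21, adjusted p = 0.00943) and on heavy polysomes at 49.5 and 43.4 against 70.1 and 85.0 (0.72 ± 0.21, adjusted p = 0.0259). Every DDC library was above every chow library of its pool. All of this level lay on the coding model of 2380 bases.

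The monosome and cytoplasm calls of Gars held when any 1 of their libraries was left out. Its light polysome call did not pass without the second chow library (adjusted p = 0.0886) or the second DDC library (0.0552), nor its heavy polysome call (0.131 and 0.142), and without the 4 chow libraries of the first preparation only the monosome call passed (limma, adjusted p = 0.00713). With its 2 groups fitted alone the light and heavy polysome calls did not pass (0.0505 and 0.145).

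Kars, the other dual-compartment gene, did not move with Gars. It was at 19.3 and 19.5 FPKM in chow cytoplasm against 23.2 and 22.8 in DDC (0.23, adjusted p = 0.392), at 32.0 and 34.1 against 30.9 and 28.2 on monosomes, at 40.9 and 43.3 against 27.6 and 28.9 on light polysomes and at 64.8 and 59.0 against 58.8 and 49.5 on heavy polysomes. The light polysome difference was called lower (-0.56 ± 0.18, adjusted p = 0.0339 by limma); with equal totals it was -0.24 (adjusted p = 0.391), and it was lost when any 1 of the 4 libraries was left out (adjusted p = 0.0744 to 0.165). Dars, the aspartyl enzyme of the complex, was likewise lower on light polysomes, 15.6 and 12.3 FPKM against 6.14 and 6.82 (-0.99), and was not called with equal totals (adjusted p = 0.166) or when any 1 of the 4 libraries was left out. In the other pools Dars was at 18.3 and 18.8 against 12.8 and 15.2 FPKM in cytoplasm, chow against DDC, 7.23 and 3.16 against 4.75 and 5.999 on monosomes and 10.4 and 10.9 against 8.004 and 13.1 on heavy polysomes, and was not called.

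Rars (chr11:35808381-35834506, minus strand) was at 12.8 and 10.8 FPKM in chow cytoplasm and 25.4 and 22.0 in DDC cytoplasm (0.95 ± 0.24, adjusted p = 0.0151 by limma), and at 5.94 and 5.62 against 11.6 and 13.0 on monosomes (0.97 ± 0.24, adjusted p = 0.00823). On light polysomes the libraries overlapped (14.0 and 11.5 against 10.7 and 17.7). On heavy polysomes the change was 0.26 (adjusted p = 0.473). The monosome call was lost when its 2 groups were fitted alone (adjusted p = 0.0716 by limma) and without preparation 1 (0.0694). Without any 1 of the 4 cytoplasmic libraries its cytoplasm call was lost (adjusted p = 0.0505 to 0.117).

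Lars was at 1.76 and 0.906 FPKM on chow monosomes and 5.96 and 4.35 on DDC monosomes (1.41 ± 0.26, adjusted p = 0.0017 by limma, and 0.0611 when the 2 groups were fitted alone). In cytoplasm it was at 4.08 and 4.78 against 5.41 and 4.43, with overlapping libraries, on light polysomes at 4.14 and 3.48 against 4.91 and 5.10 and on heavy polysomes at 11.2 and 6.98 against 8.28 and 8.60. The difference between the diets was thus called on monosomes and not in the other pools. Nars, the asparaginyl enzyme, was lower on monosomes, 19.0 and 19.9 FPKM against 9.13 and 13.3 (-0.76), and did not pass with equal totals (adjusted p = 0.219), when its 2 groups were fitted alone (0.136), without preparation 1 (0.138), without either chow library (0.0802 and 0.121) or without the first DDC library (0.2), all by limma. It was at 28.7 and 31.6 against 33.4 and 34.3 FPKM in cytoplasm, chow against DDC, 23.0 and 21.4 against 12.6 and 14.8 on light polysomes and 14.3 and 19.4 against 18.4 and 28.4 on heavy polysomes.

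Vars (chr17:35000987-35016322, plus strand), the valyl enzyme, was at 1.49 and 2.20 FPKM on chow monosomes and 19.98 and 9.52 on DDC monosomes (2.40 ± 0.41, adjusted p = 0.000963 by limma). It was at 2.70 and 3.08 against 6.49 and 3.86 in cytoplasm, 5.28 and 3.22 against 13.9 and 7.43 on light polysomes and 15.4 and 9.70 against 18.5 and 11.8 on heavy polysomes. The replicates of DDC differed widely, and only the monosome difference was called. The main coding model of Vars was listed at 0 in both chow monosome libraries and held 9.58 and 1.41 FPKM in DDC, much of the rest lying on a 3731-base model with a retained intron (1.49 and 2.20 against 6.08 and 5.88).

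Nars2 (chr7:96951505-97064758, plus strand), the mitochondrial asparaginyl enzyme, was the member lower in DDC in 3 pools. It was at 5.36 and 6.11 FPKM in chow cytoplasm and 2.12 and 1.93 in DDC (-1.15 ± 0.32, adjusted p = 0.0234 by limma), at 3.31 and 6.13 against 2.19 and 0.667 on monosomes (-1.26 ± 0.32, adjusted p = 0.00941) and at 9.48 and 6.64 against 1.89 and 1.92 on light polysomes (-1.62 ± 0.32, adjusted p = 0.00298). On heavy polysomes the libraries overlapped, at 1.85 and 2.52 against 2.39 and 2.18. The cytoplasm call was lost without any 1 of its libraries (adjusted p = 0.0813 to 0.129). The monosome call was lost with coding models alone (-0.47, adjusted p = 0.122) and without the second library of either diet (adjusted p = 0.0892 and 0.0946), and without preparation 1 the light polysome call was (0.0504). An unnamed locus, C230038L03Rik, overlaps its exons on the other strand.

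Yars2, the mitochondrial tyrosyl enzyme, was lower on light polysomes, 13.6 and 11.9 FPKM against 3.48 and 5.65 (-1.33 ± 0.34, adjusted p = 0.0119 by limma). On heavy polysomes it was at 9.76 and 12.5 against 4.53 and 7.40, without overlap, and did not pass (adjusted p = 0.103). In cytoplasm Yars2 was at 8.84 and 7.55 against 7.32 and 5.02 FPKM, chow against DDC, and on monosomes at 2.49 and 5.67 against 3.61 and 4.77, with overlapping libraries there. Without the first library of either diet the light polysome call was lost (adjusted p = 0.0751 and 0.0925), as it was without preparation 1 (0.0804).

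**Figure D4:**
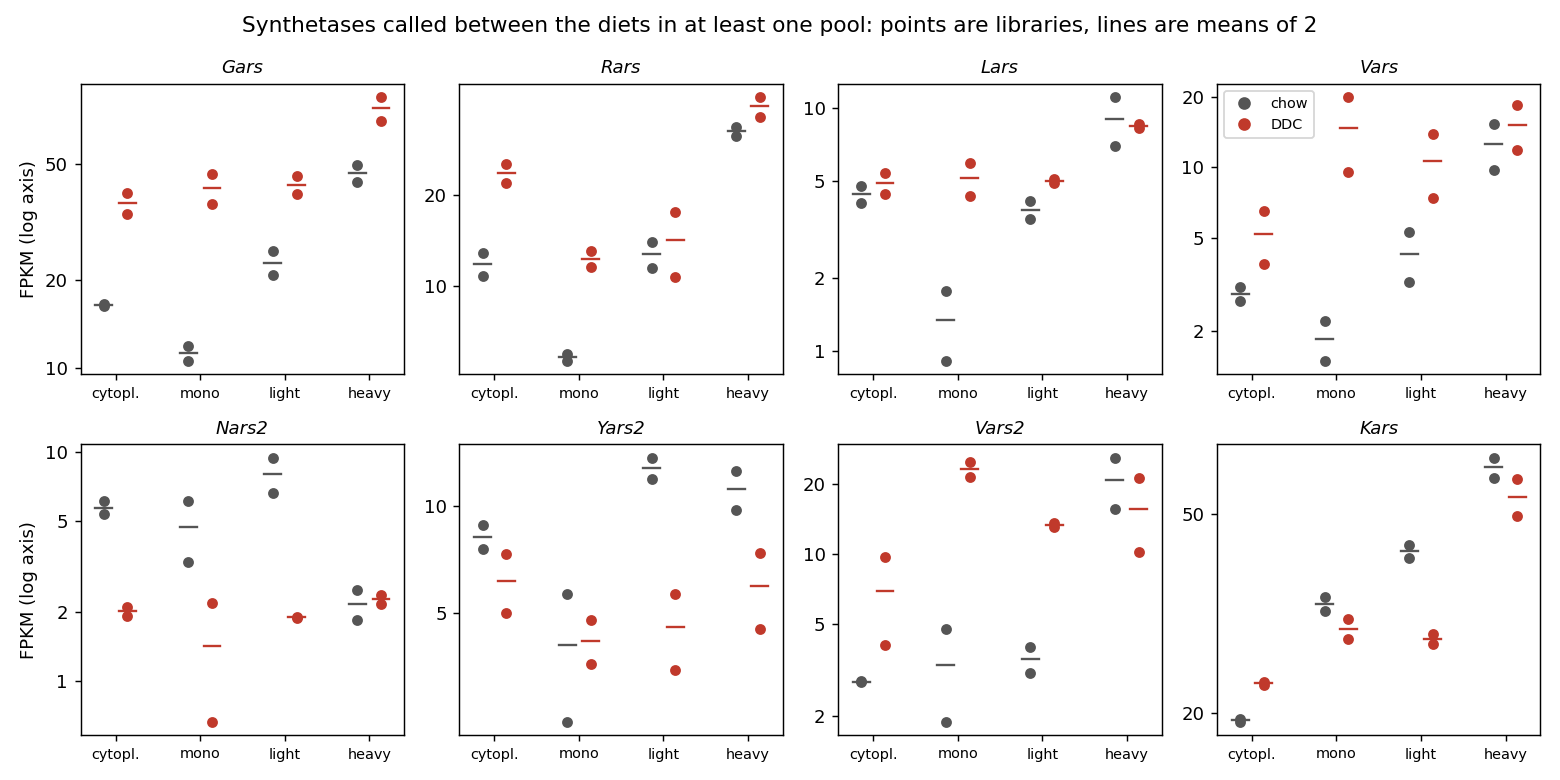
FPKM on a log axis for 8 members called between the diets in at least 1 pool; each point is a library, lines are means of 2, grey is chow and red is DDC. For Gars every red point lies above the grey points of its pool, whereas for Nars2 the colours are apart in cytoplasm and on monosomes and light polysomes and overlap on heavy polysomes.

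Cytosolic and mitochondrial enzymes for the same amino acid did not share a direction throughout. Of 17 pairs of tested genes, in which Eprs serves both glutamate and proline and Fars2 is set beside both Farsa and Farsb, the changes had the same sign in 11 in cytoplasm, 12 on monosomes, 12 on light polysomes and 8 on heavy polysomes, most of these changes not being called. On monosomes both genes were called for 3 amino acids: Vars (2.40) and Vars2 (2.58) and Lars (1.41) and Lars2 (3.96) were higher, and Nars (-0.76) and Nars2 (-1.26) lower. For asparagine, Nars was at 0.16 in cytoplasm where Nars2 was at -1.15.

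Vars2 (chr17:35655634-35667592, minus strand) was at 4.74 and 1.88 FPKM on chow monosomes and 25.1 and 21.5 on DDC monosomes (2.58 ± 0.43, adjusted p = 0.000884 by limma), and at 3.94 and 3.07 against 13.6 and 13.1 on light polysomes (1.68 ± 0.43, adjusted p = 0.0123). The light polysome call was lost without the second chow library (adjusted p = 0.0795 by limma), without either DDC library (0.0558 and 0.0508) and without preparation 1 (0.0612). In cytoplasm it was at 2.81 and 2.79 against 9.71 and 4.05 (0.95, adjusted p = 0.14) and on heavy polysomes at 26.1 and 15.7 against 21.2 and 10.2 (-0.43). Its diets were apart in cytoplasm, where the change was not called, and on monosomes and light polysomes, and overlapped on heavy polysomes. The values are mostly not those of a full coding message: the median share on coding models was 0.76%, the 4425-base coding model was listed at 0 in all 4 monosome libraries, and a 722-base model with a retained intron held 2.14 and 0 FPKM on chow against 11.2 and 14.3 on DDC monosomes.

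The last comparison asked whether the diet changed the placement. Vars2 was the 1 member called when the placement on heavy polysomes against monosomes was compared between diets (-3.01 ± 0.61, adjusted p = 0.0316 by limma), beside 1.9% of all genes called, 0.996% higher and 0.902% lower. Its placement was 2.39 in chow and -0.62 in DDC. The medians of the difference were -0.16 for cytosolic and -0.46 for mitochondrial members and -0.03 for all genes. With equal totals they were 0.04, -0.24 and 0.03. With the replicate block 5 members passed (5.3% of all genes in this fit), Lars (-1.47), Lars2 (-2.99) and Vars (-2.14) being lower with Vars2, and Nars higher (1.20).

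The Vars2 call was lost without the second chow monosome library (adjusted p = 0.099), the first chow heavy polysome library (0.0723), either DDC monosome library (0.0619 and 0.0628) or the second DDC heavy polysome library (0.0838), all by limma. For heavy polysomes against cytoplasm, 0 of 36 members were called in the difference between the diets, beside 0.102% of all genes, 0.0596% higher and 0.0426% lower by limma; 0 cytosolic and 2 mitochondrial members had an unadjusted p under 0.05, and no member was called with the replicate block.

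Lars2 (chr9:123366927-123462666, plus strand), the mitochondrial leucyl enzyme, gave the largest values of the family. It was at 6.13 and 6.53 FPKM in chow cytoplasm and 10.2 and 9.17 in DDC cytoplasm, at 9.60 and 5.19 against 156 and 101 on monosomes, at 11.4 and 15.1 against 64.6 and 34.3 on light polysomes and at 363 and 81.3 against 652 and 175 on heavy polysomes. The monosome libraries were far apart (3.96 ± 0.67, adjusted p = 0.000938 by limma), whereas on heavy polysomes the replicates of each diet differed by more than the diets did. The 3894-base Lars2 transcript, coding from base 200 to base 2905, shares an unbroken run of 52 bases in its 3′ UTR (bases 3278 to 3329) with the same strand of Gm15564, a non-coding gene. A read lying wholly within this run would match both genes, and where reads mapped was not examined. The first 30 bases of the run are printed, all in capitals since all are shared:
Lars2: GAATTCACCAAGCGTTGGATTGTTCACCCA

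The mouse Lars2 3′ UTR is known for such a stretch of 28S ribosomal RNA, so that residual ribosomal fragments can be counted as Lars2. Gm42418, a non-coding gene in the ribosomal RNA locus, was set beside it; the longest run it shares with Lars2 is 11 bases. Gm15564, which holds the 52-base run, was itself listed at 0 in all 4 monosome and all 4 light polysome libraries and did not exceed 2.44 FPKM in any library. Gm42418 was at 321 and 363 FPKM in chow cytoplasm and 517 and 590 in DDC, at 679 and 418 against 3843 and 5533 on monosomes, and at 678 and 1386 against 2188 and 2036 on light polysomes. Gm42418 was thus high in the same DDC monosome and light polysome libraries as Lars2. It was listed at 0 in all 4 heavy polysome libraries. Since it reached 100 FPKM or more elsewhere, the fit treated it as missing there, and its heavy polysome level is not known. Its part in the Lars2 values was not tested, and Lars2 is 1 of the 2 mitochondrial members called higher on monosomes.

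**Figure D5:**
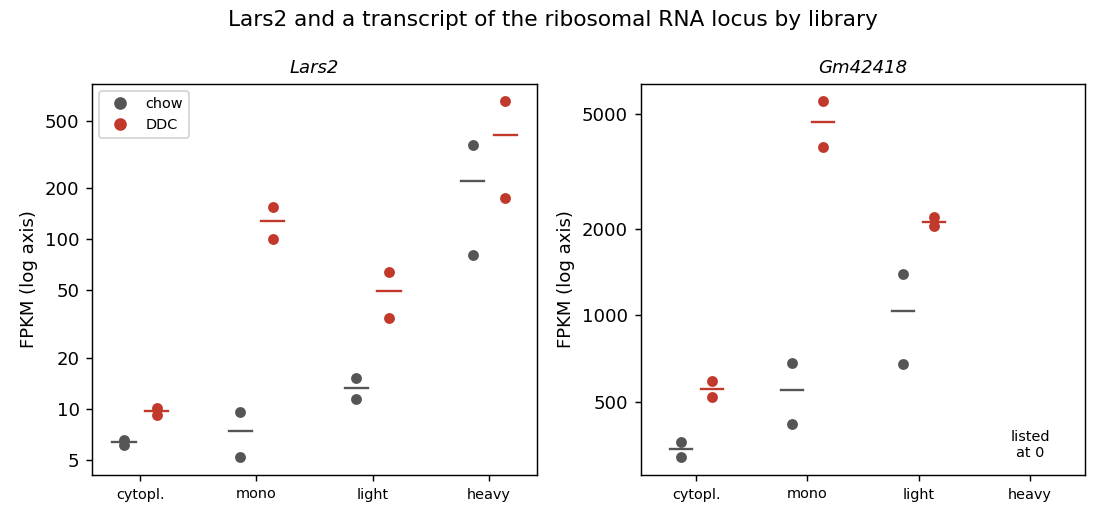
FPKM of Lars2 (left) and of Gm42418, a gene in the ribosomal RNA locus (right), on log axes, with one point per library and lines at the mean of 2; grey is chow and red is DDC. Both are highest among the non-heavy pools on DDC monosomes (156 and 101 FPKM for Lars2, 3843 and 5533 for Gm42418). Gm42418 is listed at 0 on heavy polysomes, which the fit treated as missing.

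Because Gars was called in every pool, the starts of the members were searched for the amino acid response element bound by ATF4 with C/EBP partners. The RefSeq promoter table on GRCm38.p6, 250 bases before to 50 after each gene's start, holds 27 of the 37 members. Rars, Lars, Vars and Nars, also called between the diets, are among the members it does not hold and were not searched. The letters TGATGNAA, on either strand, occur in 5 of these 27, Gars, Iars, Tars and Yars among them, as in 3.97% of 32851 promoters, and TGATGCAA in 4 of 27, Iars, Tars and Yars among them, as in 0.89%. A match is a description and not a shown binding site. The matches of these 4 named genes are printed with 11 bases on each side, the match in capitals, to set Gars beside the members that were not called:
Gars: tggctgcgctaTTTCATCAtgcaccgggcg
Iars: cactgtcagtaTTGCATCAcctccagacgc
Tars: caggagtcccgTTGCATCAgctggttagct
Yars: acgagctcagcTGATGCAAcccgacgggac
The windows are chr6:55037960-55037989, chr13:49682126-49682155, chr15:11399655-11399684 and chr4:129189895-129189924, that of Tars read from the minus strand.

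Of these 4 genes, Gars was called between the diets, and Iars, Tars and Yars were called in no pool. Tars, the threonyl enzyme, was at 40.2 and 22.6 FPKM in chow cytoplasm and 33.2 and 28.9 in DDC (0.04, adjusted p = 0.971 by limma). In cytoplasm the log2 change of Iars was 0.38 and that of Yars 0.02. The libraries of Tars and Yars overlapped between the diets there.

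The ATF4 pathway list had 31 tested genes, of which 3 were higher and 1 lower in cytoplasm, 13 and 1 on monosomes, 6 and 1 on light polysomes and 7 and 4 on heavy polysomes, with medians of 0.39, 0.81, 0.58 and 0.30. Of all genes, 22.4%, 37%, 30.1% and 24.8% were called in these pools. Atf4 itself was at 57.6 and 47.4 FPKM in chow cytoplasm and 41.1 and 47.2 in DDC (-0.24, adjusted p = 0.561 by limma). Atf3, a stress-induced repressor, was at 1.77 and 0.215 FPKM against 7.79 and 7.56 there (2.24) and was called higher in all 4 pools. Asns, which makes asparagine, was called only on heavy polysomes (1.25, adjusted p = 0.00683), at 0.132 and 0 against 1.16 and 1.95 FPKM. Trib3 was called higher on monosomes (1.37) and Ddit3, whose exons overlap those of Mars, in no pool. Cth, which makes cysteine, was lower in all 4 pools, from 64.1 and 67.0 to 19.7 and 17.2 FPKM in cytoplasm.

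The scaffold proteins of the multisynthetase complex went different ways. Aimp2 was at 6.33 and 5.52 FPKM in chow cytoplasm and 13.2 and 13.2 in DDC, and at 4.97 and 5.94 against 14.3 and 14.6 on monosomes. Aimp1 was at 20.96 and 20.1 against 11.1 and 9.51 on monosomes, and Eef1e1 at 4.69 and 7.55 against 2.56 and 3.24. On monosomes 1 of the 3 scaffold genes was called higher and 2 lower. Of the 8 enzymes of the complex 2 were higher (Lars and Rars) and 0 lower, beside 37% of all genes called, 21% higher and 15.9% lower.

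Of 22 tRNA maturation genes, 0 were called higher in any pool and 2, 3, 4 and 2 lower in cytoplasm, on monosomes, on light and on heavy polysomes, beside 9.68%, 15.9%, 13.5% and 10.9% of all genes called lower. Hsd17b10, a subunit of mitochondrial RNase P, was at 95.1 and 124 FPKM in chow cytoplasm and 59.2 and 46.1 in DDC (-1.04). Tarsl2, a cytosolic threonyl enzyme outside the symbol rule, was lower in all 4 pools, for example 2.80 and 4.07 against 1.01 and 1.18 FPKM in cytoplasm (-1.07, adjusted p = 0.00426 by limma). Sepsecs, which makes selenocysteine on its tRNA, was at 9.21 and 7.88 against 2.95 and 2.84 FPKM in cytoplasm (-1.29) and was called lower in every pool except heavy polysomes (-0.35). Eef1a2, a form of the factor that carries charged tRNA to the ribosome, was listed at 0 in both chow cytoplasm libraries and on heavy polysomes was at 23.8 and 4.42 FPKM in DDC and listed at 0 in chow.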

How the data were processed

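Polyadenylated RNA of 16 hepatocyte libraries was sequenced after stranded library preparation, per the labels' protocols. Tools in the submitters' processing notes are STAR 2.4.2a, Cuffnorm, Picard 1.119, Trimmomatic and bcl2fastq 2.17.1.14. The values deposited by the authors are FPKM per Ensembl transcript (GRCm38), scaled between libraries; whether counting used strand is not given in the sources used here. The design had allowed for counts, and its rule for FPKM was used.

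FPKM of the 116728 transcripts, of 117592, found in GENCODE M21 were summed by gene. The filter, 1 FPKM or more in 2 or more libraries, left 11790 genes. Genes at 0 in both libraries of a group but at 100 FPKM or more elsewhere were treated as missing there (16 to 23 genes per group, 0 members). log2(FPKM + 1) was fitted with limma 3.58.1 in R 4.3.3, with 8 group means, a variance trend and 8 residual degrees of freedom; the pseudocount understates changes of low genes. The script was tested on simulated data. The labels tie chow libraries, and the DDC fractions, to shared preparations: replicate differences correlated at 0.357 to 0.749 between pools within chow, 0.305 to 0.365 between DDC fractions and -0.050 to 0.161 between DDC cytoplasm and fractions.

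Alternatives changed the pseudocount, the filter, scaling, transcript set, variance model, samples, block and libraries. Members, lists and tests were chosen with earlier results of these data known. Values in every sample are given for members called in any comparison (the 8 of lowest p per comparison and class), for the most and least abundant of each class and for Gars and Kars; of other lists, called genes and Atf4, Asns, Ddit3 and Trib3 are named. Some values of 1 member and 1 sequence are not reported here.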

Additional observations from a re-analysis of the deposited data

Results flagged for a closer look

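Vars2, the mitochondrial valyl-tRNA synthetase, differed between the diets in its placement on heavy polysomes against monosomes by -3.01 on the log2 scale (adjusted p = 0.0316, limma interaction contrast): the difference was 2.39 in chow and -0.62 in DDC. It was at 4.74 and 1.88 FPKM on monosomes and 26.1 and 15.7 on heavy polysomes in chow, and at 25.1 and 21.5 against 21.2 and 10.2 in DDC. A median of 0.76% of its FPKM lay on coding models, and Gm20483 overlaps its exons on the other strand; the part of these in the difference was not tested.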

How the results depend on the processing

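Counts of called synthetases are given here for each alternative that moved them by more than 1.5 times, except where groups were left with 1 library. With equal totals they were 6 in cytoplasm (28.3% of all genes called) and 4 on heavy polysomes (23.5%) between the diets. They were 19 and 10 for heavy polysomes against monosomes in chow and DDC (42.8% and 34.8%), and 16 and 12 against cytoplasm (57.3% and 56%). With only the groups compared they were 5 in cytoplasm (36.2% of all genes called), 4 on monosomes (14.8%) and 0 on heavy polysomes (2.95%). They were 12 and 4 for heavy polysomes against monosomes (23% and 5.52%), and 0 for the diet difference of the latter (0.00851%). With coding models alone they were 3 on heavy polysomes (25.3% of all genes called) and 2 for that diet difference (3.92%). Without a filter on low values they were 0 for the difference (1.24%). With the replicate block they were 6 in cytoplasm (28.3% of all genes called), 11 on light polysomes (36.7%) and 2 on heavy polysomes (30.3%). They were 5 for the diet difference against monosomes (5.3%). The block lost no call of the fit without it. Without the 4 chow libraries of preparation 1 they were 0 in cytoplasm, 0 on light polysomes, 14 for chow heavy polysomes against monosomes, 17 against cytoplasm and 0 for the diet difference against monosomes; each chow group then holds 1 library, assumed to vary like the other groups.

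Leaving out 1 library at a time also leaves 1 library in a group, so counts are not given. Fewer members were then called between the diets in cytoplasm and on light polysomes. The same held for heavy polysomes against monosomes and against cytoplasm in both diets. Fewer of all genes were called in these comparisons too. On monosomes, on heavy polysomes and for the diet difference against monosomes, the number of members called rose or fell with the library left out.

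Single members changed sign under 2 alternatives. With equal totals the median of all genes also fell on heavy polysomes against cytoplasm. Under this scaling the difference from cytoplasm in chow became -0.18 for Aars, -0.43 for Cars, -0.37 for Farsb, -0.042 for Gars, -0.87 for Hars, -0.45 for Lars, -0.061 for Rars, -0.15 for Sars, -0.20 for Tars2 and -0.65 for Yars. In DDC it became -0.24 for Aars, -0.19 for Aars2, -0.36 for Farsb, -0.17 for Gars, -0.45 for Hars, -0.012 for Kars, -0.16 for Pars2, -0.49 for Rars, -0.056 for Tars2 and -0.15 for Yars. With coding models alone, which leaves out the models that held most of their FPKM in some libraries, the difference from monosomes became -0.000071 for Rars2 in chow, -0.998 for Rars2 and -0.14 for Farsb in DDC, and that from cytoplasm -0.15 for Cars, -1.998 for Farsa and -1.29 for Farsb in chow and -1.32 for Farsb in DDC. The cause of these changes was not tested. With 2 libraries a group and unknown depth, small differences were not detectable, and Mars2 was too low to be tested.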
